A study of Homo sapiens with 10 samples.

Results

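RNA of U2OS cells, a human osteosarcoma line, was compared between cells that had received siRNAs against both isoforms of the histone variant H2A.Z and cells that had received the siRNA against H2A.Z.2 alone. The comparison used 4 of the 10 libraries of the series, 2 with siH2A.Z1 and siH2A.Z2 (the combined libraries) and 2 with siH2A.Z2 (the siH2A.Z2 libraries), chosen by their labels. All 4 carry the H2A.Z.2 siRNA, so the groups differ by the added H2A.Z.1 siRNA, and the control siRNA and siH2A.Z1 libraries were not used. Cells were transfected for 3 days, and total RNA was depleted of ribosomal RNA and sequenced strand-specifically. Each isoform was targeted by a single siRNA sequence, and whether the combined cells received more siRNA in total than the siH2A.Z2 cells is not given in the sources used here. Nothing in the labels ties a replicate to a separate culture, so p-values measure the spread between these samples, which may be technical. In RNA from whole cultures, fewer cells of a type and less RNA per cell cannot be told apart.

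H2A.Z replaces the canonical histone H2A in nucleosomes that flank transcription start sites and enhancers, where the SRCAP and TIP60/p400 complexes deposit it. In vertebrates it is made by separate genes, H2AFZ for H2A.Z.1 and H2AFV for H2A.Z.2, whose proteins differ at a few residues. It has been tied to the activation and the repression of genes, and to cell cycle progression.

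The siRNAs are shown first because their seeds, positions 2 to 8 of a strand, recur in the results. Both target sites lie in exon 5 of the transcript, within the 3'UTR, and each perfect full-length match fell in 1 annotated gene (GENCODE v44, hg38). The H2A.Z.1 site is at chr4:99948214-99948232 on the minus strand, in H2AFZ (H2AZ1 in the annotation). The H2A.Z.2 site is at chr7:44834295-44834313 on the minus strand, in H2AFV (H2AZ2). The guide strand was taken as the reverse complement of the listed sense strand, and capitals mark the seed of each siRNA strand and its match in each target.
H2A.Z.1 guide: cUCAAUCAaaacccacuac
H2A.Z.1 sense: gUAGUGGGuuuugauugag
H2A.Z.1 target: gtagtgggtttTGATTGAg
H2A.Z.2 guide: uCAACACAcaacugucacc
H2A.Z.2 target: ggtgacagttgTGTGTTGa

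The libraries held 16716990 to 26946836 counts, and 15253 to 15703 genes had more than 10 counts in each. Pearson's r of log2 CPM across genes was 0.993 within the combined group and 0.992 within the siH2A.Z2 group, and lay between 0.967 and 0.971 across them. Genes are not independent replicates. Replicates were not duplicates of one library, since their counts differed by 7.81 (combined) and 15.6 (siH2A.Z2) times the sampling noise (chi-square per degree of freedom). COL1A1, SPARC, VIM, CDH2 and RUNX2, which mark mesenchymal and bone-forming cells, had at least 311 counts in each library, whereas COL1A2, the partner chain of COL1A1, had 11 to 14, the osteoblast factor SP7 at most 1 and the osteocalcin gene BGLAP 1 to 8, and ALPL had 7 and 11 in the combined against 173 and 196 in the siH2A.Z2 libraries. Of the markers of other cell types, the T cell gene CD3E had 0 counts, the leukocyte gene PTPRC 14 to 23, the epithelial genes EPCAM 23 to 58, CDH1 9 to 70 and KRT5 0 to 15, the endothelial genes PECAM1 4 to 19 and CDH5 6 to 10, and the hepatocyte gene ALB 1 to 3.

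H2AFZ, the target of the added siRNA, had 22.7 and 22.5 CPM in the combined libraries and 236 and 262 CPM in the siH2A.Z2 libraries, where counts per library are scaled by its size and TMM factor to CPM, the unit of level used throughout. It was 11-fold lower with both siRNAs (log2 fold change -3.46 ± 0.087, adjusted p = 7.36e-06, edgeR quasi-likelihood F test with Benjamini-Hochberg adjustment, as for all adjusted p below; ± gives the standard error of the fit). H2AFV, whose siRNA both groups received, had 81.1 and 72.4 CPM against 62.6 and 65.8 CPM. Both combined libraries lay above both siH2A.Z2 libraries for H2AFV, and the difference was not called (log2 fold change 0.26 ± 0.087, adjusted p = 0.0557), its fold change also being under the threshold; it was called as higher, at 0.33 on the log2 scale, when libraries were scaled by size only. How far H2AFV was lowered by its siRNA cannot be read here, as no control library enters. Among the other H2A and H3 variants and linker histone variants, H1F0, a linker histone of slowly dividing and differentiated cells, was the only gene called with all 4 libraries, at 410.03 and 402 CPM against 234 and 241 CPM (log2 fold change 0.77 ± 0.07, adjusted p = 0.00027). H1FX was also called up without replicate 1 of the siH2A.Z2 group, and H2AFX called down without replicate 2 of either group.

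A gene was called at an adjusted p under 0.05 and a log2 fold change over 0.32 in size, the thresholds of the study. Of 15974 tested genes, 4761 (29.8%) were called, 2100 (13.1%) higher and 2661 (16.7%) lower with both siRNAs. The median log2 fold change was 0.65 among the genes called up and -0.69 among those called down, against 0.014 over all tested genes. Beyond 2-fold there were 541 up and 747 down, and beyond 4-fold 107 and 162. The groups did not overlap for any of the 4761 called genes, as for 68.4% of all tested genes. Genes called down held 24.4% of the mean CPM of the siH2A.Z2 libraries and 16.2% of that of the combined libraries, and genes called up 8.99% and 13.3%. The balance of directions depended on scaling, with 44.1% of calls up here and 56.1% (2842 up and 2224 down) when libraries were scaled by size only. It also rested on replicate 1 of the combined group, without which 844 genes were called up and 1474 down.

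**Figure D1:**
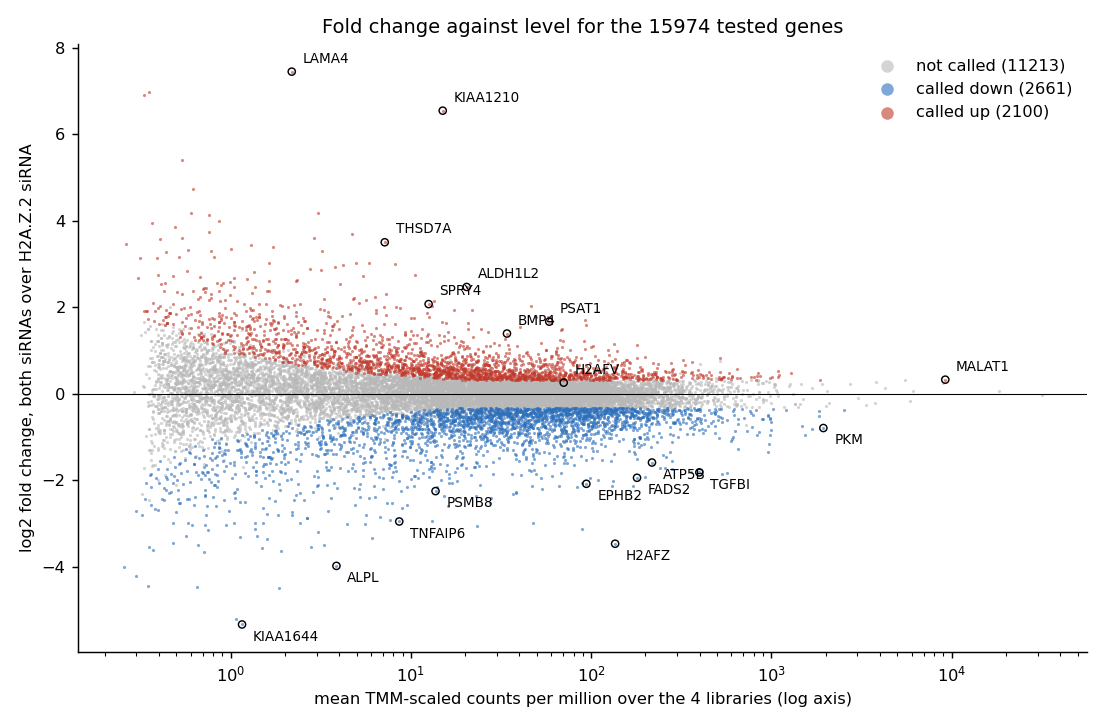
Each point is a tested gene, with its mean TMM-scaled CPM over the 4 libraries on a log axis and its log2 fold change of the combined over the siH2A.Z2 libraries on the vertical axis; red and blue mark genes called up and down. The 2100 called up and 2661 called down spread over the whole range of levels, with LAMA4 and KIAA1210 highest and KIAA1644 lowest among the circled genes.

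Base composition moved with the libraries. Genes were cut by GC content into 5 bins of equal size. In the bin with the most GC (57.3% to 72.8% of the transcript), the median log2 ratio of replicate 1 over replicate 2 was -0.23 in the combined group and 0.27 in the siH2A.Z2 group. In the bin with the least GC it was 0.044 and -0.12. Between the groups the corresponding medians were -0.065 and 0.057, and 6.61% of the GC-rich bin were called up against 15.5% of the GC-poor bin. An offset per library that follows GC content, added after seeing the data, gave 2653 genes up and 2838 down, with 96.4% of the 4761 calls kept in the same direction. PLEC and FASN, which encode a cytoskeletal linker and fatty acid synthase, differed between replicates in the same directions as the GC-rich bin. Their own GC content is not given here. PLEC had 785 and 1318 CPM against 2607 and 1443 CPM (log2 fold change -0.95 ± 0.301, adjusted p = 0.0458). Its call was lost without replicate 1 of the combined group (-0.62) or of the siH2A.Z2 group (-0.46). FASN, at 409.9 and 683 CPM against 1142 and 659 CPM, was not called (adjusted p = 0.0916). In 5 of 15 alternative fits FASN was called down, with values from -1.14 to -0.27 over all 15. The part of base composition in single calls was not tested.

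LAMA4, the alpha 4 chain of basement membrane laminins (hg38, chr6:112107931-112254939), was the largest rise among genes averaging 1 CPM or more. It had 110 and 64 counts in the combined libraries and 0 and 1 in the siH2A.Z2 libraries, a ratio of 225 with an exact 95% counting interval of 39.9 to 8945. KIAA1210 (chrX:119078635-119150579) had 35.1 and 24.3 CPM against 0.406 and 0.229 CPM (log2 fold change 6.54 ± 0.305, adjusted p = 3.29e-05). Both combined libraries stood far above both siH2A.Z2 libraries in each case. The other 10 largest rises lay between 3.02 and 4.17 on the log2 scale. They were ATP10B, a lipid flippase, LOC105371795, CHI3L1, a secreted chitinase-like glycoprotein, THSD7A, CD163, the haemoglobin scavenger receptor of macrophages, BMX, a TEC family kinase, CD96, a receptor of T and NK cells, LOC101929680, ARPP21 and FUT1, a fucosyltransferase of the H antigen. THSD7A rose from 1.3 and 1.03 CPM to 14.7 and 11.6 CPM (log2 fold change 3.50 ± 0.21, adjusted p = 6.52e-05). CD163 and CD96 stayed low, at 2.84 and 1.93 CPM and 6.62 and 5.03 CPM in the combined libraries.

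KIAA1644 (SHISAL1 in the annotation, chr22:44243665-44312951) and MLC1, a membrane protein known from astrocytes (chr22:50059391-50085426), were the largest falls. KIAA1644 had 57 and 58 counts in the siH2A.Z2 libraries and 1 in each combined library, a ratio of 44.4 (exact 95% counting interval 12 to 371). MLC1 had 55 and 51 counts against 1 in each, a ratio of 41.0 (11.1 to 343). These intervals cover counting error only. ALPL, the bone alkaline phosphatase, had 0.496 and 0.41 CPM against 7.96 and 6.6 CPM and fell 15.7-fold (log2 fold change -3.97 ± 0.253, adjusted p = 7.38e-05). DSP, the desmosomal plaque protein desmoplakin, had 0.586 and 0.468 CPM against 6.01 and 6.18 CPM (log2 fold change -3.50 ± 0.234, adjusted p = 8.82e-05). The groups were apart by about an order of magnitude for both genes, at levels under 10 CPM. The remaining large falls, from -3.30 to -3.62 apart from CGB8, were the nicotinic receptor subunit CHRNA3, SEC16B of ER exit sites, the membrane oestrogen receptor GPER1, the pseudogene GGT8P, the serine protease KLK6 and TMCC3. CGB8 (-4.47) encodes a chorionic gonadotropin beta chain and has near-identical copies between which reads can be split, as has GGT8P, so their values are uncertain.

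**Figure D2:**
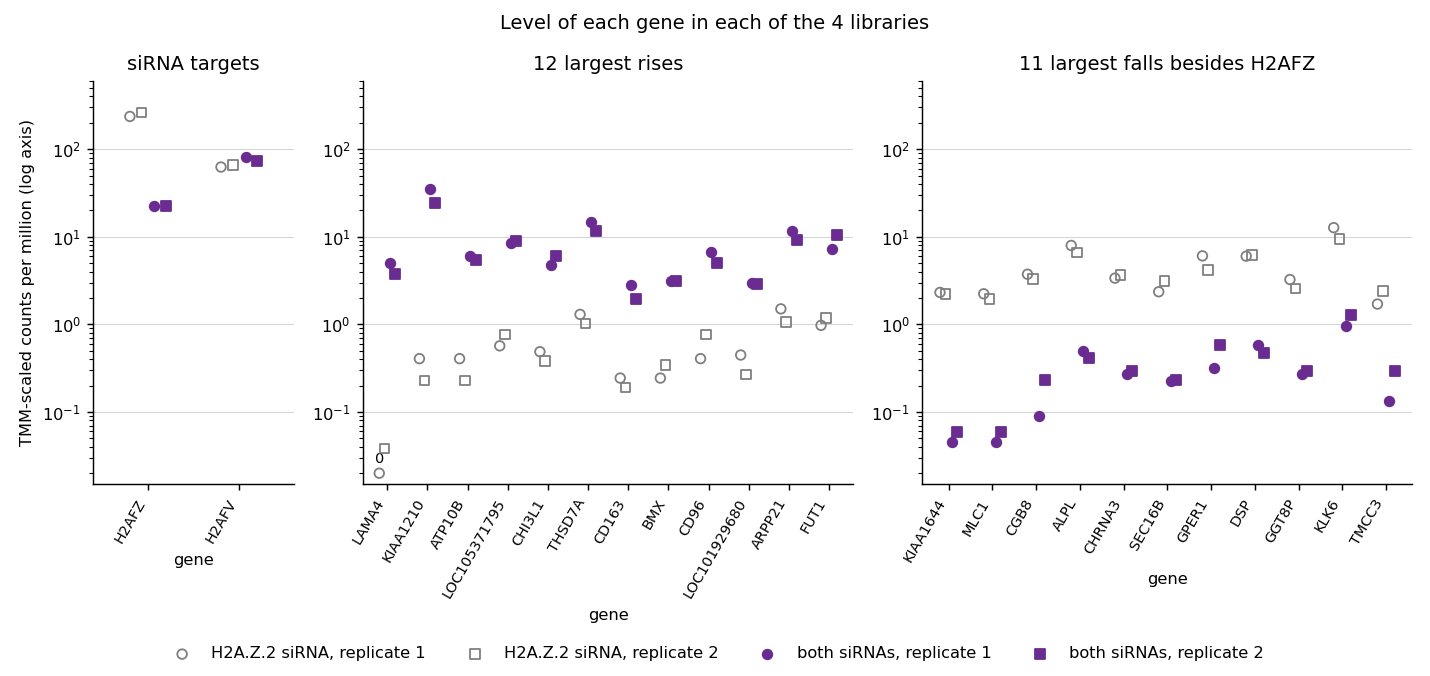
TMM-scaled CPM (log axis) of the siRNA targets and of the genes with the largest changes, 1 point per library; open grey points are siH2A.Z2 libraries and filled purple points combined libraries. A library with 0 counts (LAMA4, siH2A.Z2 replicate 1) is drawn at the bottom and marked 0. H2AFZ fell from 236 and 262 CPM to 22.7 and 22.5, and the points of the groups do not interleave for any gene shown.

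In absolute CPM the largest rises were MALAT1, an abundant nuclear noncoding RNA, and the ribosomal protein genes RPS6 and RPL4. MALAT1 had 10333 and 10192 CPM against 8118 and 8242 CPM (log2 fold change 0.33 ± 0.079, adjusted p = 0.0166); its call was lost without any one of the 4 libraries, with adjusted p from 0.0572 to 0.13 in all but the one without replicate 1 of the siH2A.Z2 group, where the fold fell under the threshold. The largest falls in CPM were PLEC and the glycolytic enzyme genes PKM and ENO1. PKM, pyruvate kinase, had 1426 and 1422 CPM against 2448 and 2477 CPM, with replicates of each group close together (log2 fold change -0.79 ± 0.074, adjusted p = 0.000317). ENO1, an enolase, had 1226 and 1218 CPM against 2115 and 2172 CPM (log2 fold change -0.81 ± 0.074, adjusted p = 0.000289).

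A short match between an siRNA seed and the 3'UTR of another mRNA can lower that mRNA, as a microRNA would, and the added siRNA was in the combined cells only. Of 15974 tested genes, 13623 (85.3%) had an annotated 3'UTR, of which the longest was searched, and 18.3% of these were called down and 12.2% up. Among the 1649 genes with TGATTGA, the match to the H2A.Z.1 guide seed, 25% were called down and 11% up. Among the 1018 with CCCACTA, the match to the seed of the sense strand of that siRNA, 30.2% were down and 11.6% up. For the 2808 genes with TGTGTTG, the match to the H2A.Z.2 guide, which all 4 libraries had received, the shares were 19.5% and 14.2%. Genes without either H2A.Z.1 match were called down in 16.4% of 11158 cases. Over all 13623 genes with a 3'UTR, 2465 held at least 1 of the 2 matches. Of those called down, 660 of 2493 held at least 1, and of those called up, 274 of 1658. 3'UTRs with a match were longer, with medians of 3420 (guide) and 3400 bases (sense) against 1523 over all. When 3'UTRs were cut by length into 3 bins, in the bin of the shortest, 28% of 100 genes with the guide match and 34.5% of 84 with the sense match were called down, against 14.2% and 14.1% without. In the bin of the longest the shares were 23.8% and 28.6%, against 19.9% and 19.6%. The part of such matches in single falls was not tested. The sites below, in hg38 with the match in capitals, lie in the 3'UTR of genes whose falls are described here. KIAA1644, DSP, ATP5B and ITGAV hold the guide match and PSMB8, FADS2 and PKM the sense match.
KIAA1644, chr22:44248023-44248051, minus strand: ccttgagcagaTGATTGAagcccagattt
DSP, chr6:7586001-7586029, plus strand: aaatatagccaTGATTGAaatcaaatagt
ATP5B, chr12:56638222-56638250, minus strand: cacaagagcctTGATTGAagatatattct
ITGAV, chr2:186678846-186678874, plus strand: tgttttaaaaaTGATTGAaatttatcttg
PSMB8, chr6:32840735-32840763, minus strand: tttctgggtgcCCCACTAagtagaataaa
FADS2, chr11:61867067-61867095, plus strand: ttgcagtctaaCCCACTAatcagttctta
PKM, chr15:72199085-72199113, minus strand: ttccattttccCCCACTActgcagcacct
Genes that rose hold such matches too, among them KIAA1210 and ARPP21 (guide) and THSD7A, SPRY4 and RNF43 (sense).

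The genes were grouped into 31 lists by pathway or family, 18 of which had more members called down than up and 11 more up than down. These counts are set against 13.1% of all tested genes called up and 16.7% called down, and a share near those is no result about a list.

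**Figure D3:**
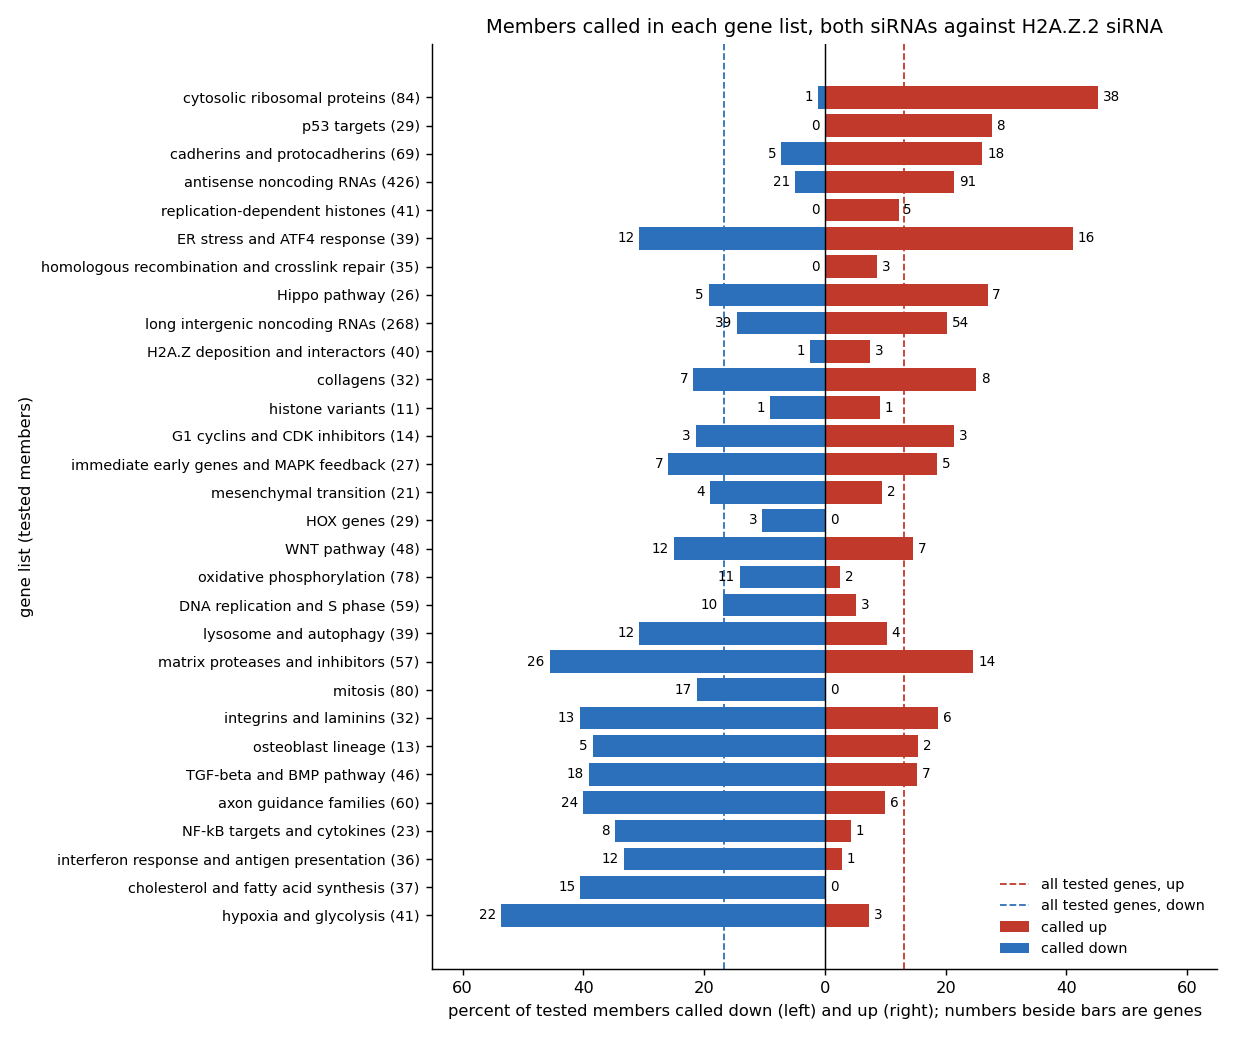
Percent of the tested members of each gene list that were called down (left, blue) and up (right, red), with the number of genes beside each bar and the number tested in brackets; dashed lines give the shares over all tested genes, 13.1% up and 16.7% down. Lists with fewer than 10 tested members are left out. Ribosomal proteins (38 of 84 up) stand at the top and hypoxia and glycolysis (22 of 41 down) at the bottom.

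Of 80 mitosis genes, 17 were called down and 0 up (median log2 fold change -0.19), and 68 of the 80 had a value below 0. Of the 17 falls, 7 were among the 14 spindle and cytokinesis genes and 0 among the 15 genes of the centromere and kinetochore. NEK2, a centrosome kinase, had 23.8 and 20.2 CPM against 46.4 and 47.2 CPM (log2 fold change -1.09 ± 0.109, adjusted p = 0.000416). CDC25B, the phosphatase that activates CDK1, had 61.5 and 67.4 CPM against 119.5 and 111 CPM (log2 fold change -0.84 ± 0.083). PRC1, which bundles the central spindle, had 78 and 69.4 CPM against 122 and 133 CPM (log2 fold change -0.79 ± 0.087) and holds an H2A.Z.1 guide match. For each of these genes both combined libraries lay below both siH2A.Z2 libraries. The mitotic kinase genes CDK1 (-0.16, adjusted p = 0.152) and PLK1 (-0.28, adjusted p = 0.0385), cyclin CCNB1 (-0.31, adjusted p = 0.0211) and the proliferation marker MKI67 (-0.31, adjusted p = 0.0233) were not called, the last 3 because their fold change was under the threshold. CCNB1 and MKI67 were each called down in 3 of 15 alternative fits, and PLK1 in 1. The count depended on the fit. Over the 15 alternatives the lowest counts called down were 3 mitosis genes and 0 of the spindle and cytokinesis genes. The median of the mitosis list stayed between -0.25 and -0.12. Scaling by library size only gave 11 down and 1 up. Of the 17 falls, 4 hold an H2A.Z.1 seed match, and 13 of the 75 members with a 3'UTR and no match were called down. RefSeq promoters (GRCh38.p14, 250 bases before to 50 after the start, both strands searched) were available for 69 mitosis genes. Of these, 66.7% held TTTGAA, the core of the cell cycle homology element, and 66.7% CCAAT. Among the promoters of 11981 tested genes the shares were 10.3% and 36.2%, and among 51 of replication and S phase genes 5.88% and 54.9%. Members were counted whatever their call, so the shares do not bear on which genes fell.

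DNA replication and S phase genes did not move together, with 3 of 59 up and 10 down (median -0.012). E2F1 and E2F2, related activators of S phase genes, differed in direction. E2F1 had 20.2 and 21.2 CPM against 38.7 and 33.7 CPM and fell (log2 fold change -0.81 ± 0.11, adjusted p = 0.00153), and its 3'UTR holds a guide match. E2F2 had 34.2 and 31.5 CPM against 21.2 and 24.2 CPM and rose (log2 fold change 0.53 ± 0.11, adjusted p = 0.0088), a call lost without replicate 1 of the combined group (adjusted p = 0.0773). RRM2, a subunit of ribonucleotide reductase, had 133 and 119 CPM against 172 and 184 CPM (log2 fold change -0.49 ± 0.083, adjusted p = 0.00373). GMNN and DTL, which restrain and degrade the licensing factor CDT1, fell by 0.56 each on the log2 scale, and MCM3 and POLA1, of the replicative helicase and the primase polymerase, rose by 0.38 and 0.34. Without replicate 1 of the combined group the calls of GMNN, MCM3 and POLA1 were lost (adjusted p = 0.101, 0.0904 and 0.0967) and 0 members rose. MCM2 (-0.07, adjusted p = 0.536) and the clamp gene PCNA (-0.017, adjusted p = 0.89) were not called, and took a positive value when scaled by library size only.

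Among G1 regulators 3 of 14 rose and 3 fell. The pocket protein genes RB1 (141 and 139 CPM against 102 and 108 CPM, log2 fold change 0.41 ± 0.071, adjusted p = 0.00401) and RBL1 (0.46, adjusted p = 0.00429), which hold back E2F factors, and the kinase gene CDK6 (0.34) rose. CDK2, the kinase of cyclins E and A, had 49.9 and 43.7 CPM against 74.4 and 83.3 CPM (log2 fold change -0.75 ± 0.101, adjusted p = 0.00146), and the cyclin D genes CCND3 (-0.59) and CCND2 (-0.37) fell. All 3 falls hold an H2A.Z.1 guide match, as does RB1, which rose. Of the 9 members with a 3'UTR and no H2A.Z.1 match, 2 rose and 0 fell. Without replicate 1 of the combined group CCND3, CCND2 and CDK6 lost their calls (adjusted p = 0.0519, 0.0624 and 0.068), and CCND2 and CDK6 also without its replicate 2 (0.0787 and 0.0732); CDK6 fell short of the fold threshold without replicate 1 of the siH2A.Z2 group (0.34 became 0.28). CCND1 (221 and 238 CPM against 202 and 191 CPM, adjusted p = 0.0574) was not called.

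Of 29 p53 target genes 8 rose and 0 fell (median 0.19); 5 rose without replicate 1 of the combined group. TP53INP1, a p53-induced gene of cell death and autophagy, had 189 and 181 CPM against 81.3 and 84.2 CPM (log2 fold change 1.16 ± 0.07, adjusted p = 6.52e-05). MDM2, the ubiquitin ligase of p53, had 606 and 621 CPM against 444 and 488 CPM (log2 fold change 0.40 ± 0.078, adjusted p = 0.0075), and the death receptor gene FAS rose by 0.49 (adjusted p = 0.00344). GDF15, a stress-induced cytokine, had 5.95 and 13.2 CPM against 3.9 and 2.71 CPM (log2 fold change 1.52 ± 0.369, adjusted p = 0.0173), with its combined replicates far apart; without replicate 2 of that group its value was 0.85. CDKN1A, the p53-induced inhibitor p21, had 293 and 329 CPM against 322 and 285 CPM, so its groups overlapped (0.034, adjusted p = 0.805), and its sign turned negative without replicate 2 of either group.

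In homologous recombination and crosslink repair 3 of 35 genes were called up and 0 down (median 0.094). BRCA2, which acts in the strand exchange step of recombination, had 166 and 158 CPM against 97.6 and 115 CPM (log2 fold change 0.61 ± 0.092, adjusted p = 0.00231). XRCC2 (0.45) was called as well, but lost its call without replicate 1 of either group or replicate 2 of the combined group (adjusted p from 0.051 to 0.133). Without replicate 1 of either group 1 of the 35 was called up, and without replicate 2 of the siH2A.Z2 group 7. BRCA1 (0.043, adjusted p = 0.676) and FANCD2 (-0.09, adjusted p = 0.422) were not called. Of 41 replication-dependent histone genes 5 rose and 0 fell, and there were 12 rises without replicate 1 of the siH2A.Z2 group, 1 without replicate 1 of the combined group and 3 without replicate 2 of either; their near-identical copies can share reads, so single genes such as HIST1H2BB (1.75), HIST1H2AK (0.85) and HIST1H4A (0.36) are uncertain.

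Most amino acid supply genes rose and most endoplasmic reticulum (ER) chaperone genes fell. The transcription factor ATF4 drives genes of amino acid synthesis and uptake when translation initiation is held back, whereas XBP1 and ATF6 drive ER chaperones. Of 14 amino acid supply genes 11 rose and 1 fell (median 0.70), and of 16 chaperone genes 1 rose and 11 fell (median -0.53). ATF4 itself had 389.8 and 365 CPM against 251 and 276 CPM (log2 fold change 0.52 ± 0.081, adjusted p = 0.00271). ALDH1L2, a mitochondrial folate enzyme, had 37 and 32.1 CPM against 6.09 and 6.41 CPM and rose 5.53-fold (log2 fold change 2.47 ± 0.125, adjusted p = 4.22e-05). PSAT1, of serine synthesis, had 93.3 and 85 CPM against 26 and 30.2 CPM (log2 fold change 1.67 ± 0.104, adjusted p = 6.95e-05). CHAC1, which degrades glutathione, had 14.1 and 17.8 CPM against 5.2 and 4.31 CPM (log2 fold change 1.74 ± 0.171, adjusted p = 0.000387). In each of these genes both combined libraries lay above both siH2A.Z2 libraries. SLC7A5, the leucine transporter, went the other way, with 86.3 and 107 CPM against 281 and 226 CPM (log2 fold change -1.39 ± 0.135, adjusted p = 0.000366), and DDIT3, a death factor downstream of ATF4, was not called (0.29, adjusted p = 0.0815).

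HSPA5, the main ER chaperone BiP, had 279.9 and 288 CPM against 441 and 451 CPM (log2 fold change -0.65 ± 0.07, adjusted p = 0.000554), and MANF, an ER stress-induced secreted factor, 32 and 33.4 CPM against 50.6 and 56.2 CPM (log2 fold change -0.71 ± 0.095, adjusted p = 0.00146). SDF2L1 was also called (-0.79), but not without replicate 1 of the combined group (adjusted p = 0.169) or of the siH2A.Z2 group (adjusted p = 0.0501). Leaving out the first combined library left 7 of the 14 amino acid supply genes as rises, and 9 of the 16 chaperone genes fell. Of the 11 chaperone falls 1 holds an H2A.Z.1 seed match.

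The promoters of 15 chaperone genes held CCAAT, part of the ER stress element, in 93.3% of cases. The share was 36.2% for 11981 tested genes, 60% for 10 amino acid supply genes and 66.7% for 69 mitosis genes. Only CCAAT was searched, not the whole element, and members were counted whatever their call. TGATGNAA, a core of the composite site bound by ATF4, was searched on both strands after the values had been seen, and stood in 3 of 10 promoters of amino acid supply genes, against 1.88% of the promoters of 11981 tested genes. A match is a description of the letters in the window. The 3 sites are shown with the motif in capitals (RefSeq, GRCh38.p14); in CHAC1 and SLC3A2 it stands on the opposite strand, and SLC3A2 was not called. ASNS, which makes asparagine and is named for its site after values were seen, rose by 1.49 on the log2 scale.
ASNS, chr7:97872458-97872487, minus strand: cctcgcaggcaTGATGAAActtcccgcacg
CHAC1, chr15:40953251-40953280, plus strand: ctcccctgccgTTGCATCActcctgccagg
SLC3A2, chr11:62881725-62881748, plus strand: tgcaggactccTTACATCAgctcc

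**Figure D4:**
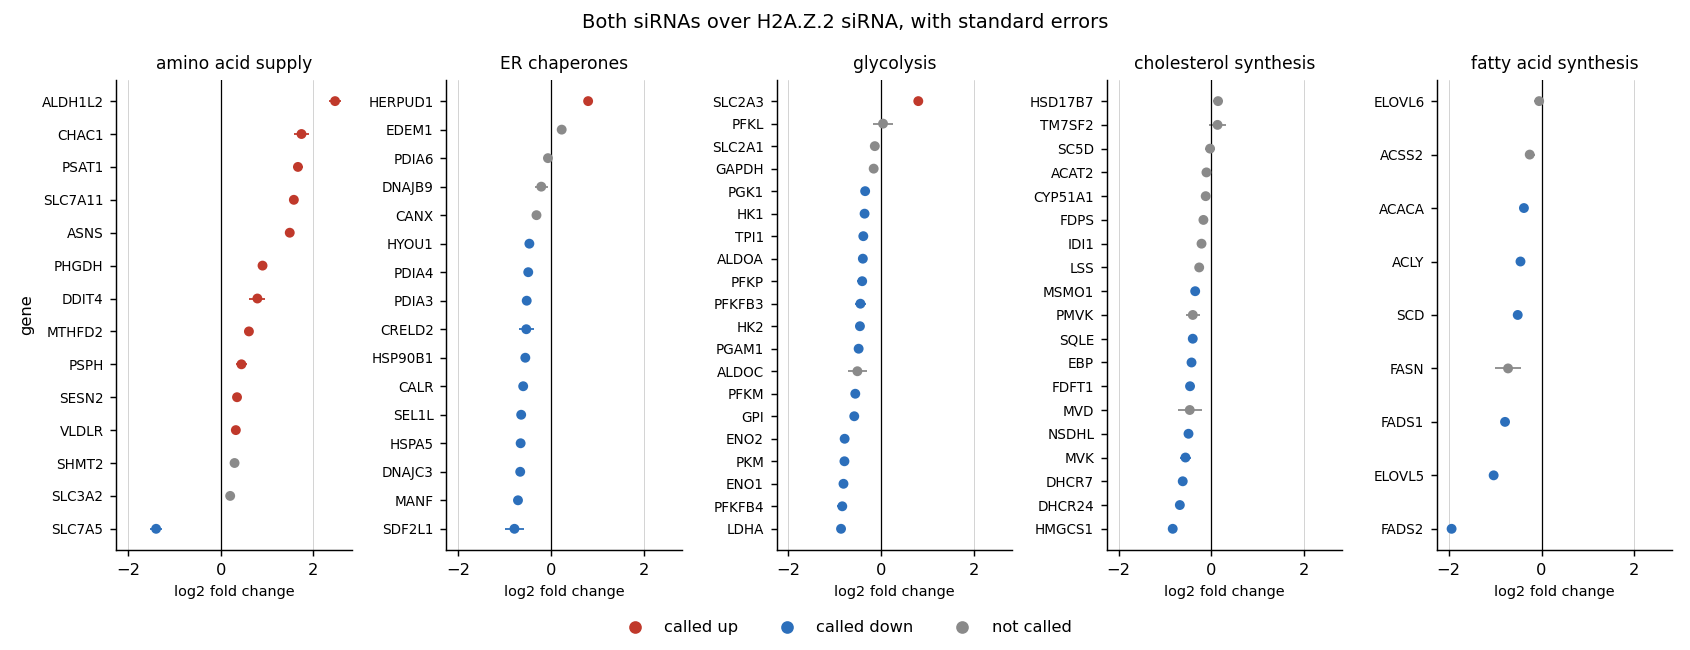
Log2 fold change of the combined over the siH2A.Z2 libraries for tested members of 5 gene groups, with the standard error of the fit as a horizontal line; red, blue and grey mark genes called up, called down and not called. In amino acid supply 11 of 14 genes were called up, and in ER chaperones 11 of 16, in glycolysis 15 of 20, in cholesterol synthesis 9 of those drawn and in fatty acid synthesis 6 of 9 were called down.

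Of 20 glycolysis genes 15 fell and 1 rose (median -0.45), and 10 fell without replicate 1 of the combined group. LDHA, which makes lactate, had 539.8 and 504 CPM against 893 and 1005 CPM (log2 fold change -0.86 ± 0.087, adjusted p = 0.000423), and PKM and ENO1 are given above. PFKFB4, which sets the level of an activator of glycolysis, had 13.4 and 14.8 CPM against 25.5 and 24.7 CPM (log2 fold change -0.84 ± 0.11). In contrast SLC2A3, the glucose transporter GLUT3, had 171 and 174 CPM against 92 and 105 CPM and rose (log2 fold change 0.80 ± 0.084, adjusted p = 0.00049). GAPDH, often used as a reference, had 5676 and 5497 CPM against 6181 and 6297 CPM and was not called (-0.16, adjusted p = 0.156), and neither was ACTB (-0.21, adjusted p = 0.0816). Of the 15 falls 2 hold an H2A.Z.1 seed match, PKM among them. The hypoxia-inducible genes outside glycolysis were mixed, with 7 of 18 down and 1 up (4 and 0 without replicate 1 of the combined group); VEGFA (-0.055, adjusted p = 0.661) and CA9 (-0.57, adjusted p = 0.213) were not called, VEGFA taking a positive sign when scaled by library size only or by the upper quartile. EPAS1, the hypoxia factor HIF-2 alpha, rose (33.7 and 37.5 CPM against 23.5 and 25.9 CPM, log2 fold change 0.53 ± 0.106, adjusted p = 0.00828).

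Of 37 genes of cholesterol and fatty acid synthesis 15 fell and 0 rose (median -0.29), 9 of 20 in cholesterol synthesis and 6 of 9 in fatty acid synthesis. FADS2, the first desaturase of polyunsaturated fatty acids, had 70.2 and 78.6 CPM against 289 and 281 CPM and fell 3.83-fold (log2 fold change -1.94 ± 0.082, adjusted p = 2.2e-05). ELOVL5, an elongase of the same path, had 116 and 112 CPM against 220.2 and 246 CPM (log2 fold change -1.03 ± 0.08, adjusted p = 0.000159). HMGCS1, which makes the precursor of mevalonate, had 308 and 307 CPM against 516 and 578 CPM (log2 fold change -0.83 ± 0.082, adjusted p = 0.000385). FADS2 and HMGCS1 are the falls of this list with an H2A.Z.1 match, both to the sense strand. Over the 15 alternatives as few as 6 of the 37 fell, with medians from -0.33 to -0.22.

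In oxidative phosphorylation 11 of 78 genes fell (14.1%, against 16.7% of all tested genes) and 2 rose (2.56%, against 13.1%). ATP5B, the beta subunit of ATP synthase, stood out with 109 and 108 CPM against 322 and 331 CPM, 3-fold lower (log2 fold change -1.59 ± 0.07, adjusted p = 2.55e-05), and its 148-base 3'UTR holds the guide match shown above. ATP5C1 (-0.84) and NDUFA9 (-0.74) fell by less, and without replicate 1 of the combined group 6 members fell and 1 rose. Of 39 lysosome and autophagy genes 12 fell and 4 rose. GABARAPL1, an autophagosome protein, had 30.4 and 30.0 CPM against 50.6 and 50.1 CPM (log2 fold change -0.74 ± 0.087, adjusted p = 0.000818), and NEU1, the lysosomal sialidase, 43.5 and 43.9 CPM against 70.4 and 72.2 CPM (log2 fold change -0.71 ± 0.08, adjusted p = 0.000686). The 4 rises, NPC2, GLB1, HEXA and ATP6V1A (the last named after its value was seen), were lost without replicate 1 of the combined group (adjusted p from 0.0501 to 0.0893 for the first 3).

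In the TGF-beta and BMP pathway more genes fell than rose. TGF-beta ligands signal through SMAD2 and SMAD3 to matrix genes such as TGFBI, and BMPs through other SMADs to the ID genes. Over the whole list 18 of 46 genes fell and 7 rose (median -0.28), with 4 down and 1 up of 8 ligands, 5 and 2 of 11 receptors, 2 and 0 of 8 SMADs, 4 and 1 of 12 inhibitor and matrix genes, and 3 and 3 of 7 targets. Among ligands, TGFB2 had 62.4 and 59.1 CPM against 120.2 and 134 CPM (log2 fold change -1.06 ± 0.084, adjusted p = 0.000163), whereas BMP4 had 49.1 and 49.8 CPM against 18.3 and 19.4 CPM and rose (log2 fold change 1.39 ± 0.094, adjusted p = 8.92e-05). The co-receptor gene TGFBR3 had 7.75 and 7.96 CPM against 26.4 and 28.5 CPM (log2 fold change -1.80 ± 0.116, adjusted p = 7.53e-05), and LTBP1, which stores latent TGF-beta in the matrix, 61.4 and 56.5 CPM against 169.9 and 171 CPM (log2 fold change -1.53 ± 0.076, adjusted p = 3.98e-05). In both genes each combined library lay below each siH2A.Z2 library. Of the targets, TGFBI, a matrix protein gene, had 192 and 161 CPM against 580.4 and 661 CPM (log2 fold change -1.81 ± 0.11, adjusted p = 6.52e-05). Of the ID genes, the 3 targets that rose were ID2, named after its value was seen, ID1 with 40.1 and 48 CPM against 29 and 20.7 CPM (log2 fold change 0.82 ± 0.167, adjusted p = 0.00837) and ID4 with 6.98 and 5.44 CPM against 2.52 and 2.63 CPM (log2 fold change 1.28 ± 0.194), and ID3 was not called. FST, which encodes the activin antagonist follistatin, rose (1.12).

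WNT and Hippo genes moved in both directions. Of 48 WNT genes 7 rose and 12 fell, and 4 and 7 without replicate 1 of the combined group; without replicate 2 of the siH2A.Z2 group 4 rose. RNF43, a ubiquitin ligase that removes WNT receptors, had 10.9 and 9.89 CPM against 1.91 and 2.52 CPM (log2 fold change 2.23 ± 0.186, adjusted p = 0.000193), and the receptor gene ROR1 21.8 and 16.7 CPM against 4.79 and 5.8 CPM (log2 fold change 1.86 ± 0.174, adjusted p = 0.000314). The ligand genes WNT7B (0.541 and 0.351 CPM against 3.82 and 2.59 CPM, log2 fold change -2.79 ± 0.353, adjusted p = 0.00112) and WNT10B (-1.83) and the factor gene TCF7L1 (-1.48) fell. CTNNB1, which encodes beta-catenin, and its target AXIN2 were not called (0.12 and -0.04, adjusted p = 0.236 and 0.808). Of 26 Hippo genes 7 rose and 5 fell. YAP1, the effector that the pathway restrains, had 269.9 and 258 CPM against 188 and 204 CPM and rose (log2 fold change 0.43 ± 0.075, adjusted p = 0.00462), as did the upstream genes SAV1 (0.72) and STK4 (0.43). Of the YAP targets, AXL, a receptor tyrosine kinase gene, fell (555 and 587 CPM against 1092 and 1116 CPM, log2 fold change -0.95 ± 0.075, adjusted p = 0.000163), CRIM1 rose (0.66), and CTGF (0.094, adjusted p = 0.353) and CYR61 (-0.29, adjusted p = 0.0158, under the fold threshold) were not called. MOB1A (-0.83), an activator of LATS kinases, and VGLL3 (-0.74), a TEAD cofactor, fell, and both hold a guide match.

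Of 27 immediate early and MAPK feedback genes 5 rose and 7 fell. SPRY4, an inhibitor of receptor tyrosine kinase signalling, had 20.7 and 19.8 CPM against 4.75 and 4.88 CPM and rose 4.21-fold (log2 fold change 2.07 ± 0.125, adjusted p = 6.52e-05). DUSP2 and DUSP1, related MAPK phosphatase genes, moved in opposite directions, DUSP2 to 9.96 and 13.8 CPM from 5.28 and 4.77 CPM (log2 fold change 1.23 ± 0.188, adjusted p = 0.00251) and DUSP1 to 66.9 and 50.6 CPM from 129 and 112 CPM (log2 fold change -1.03 ± 0.136, adjusted p = 0.00136). MYC fell from 113 and 96.4 CPM to 55.3 and 67.2 CPM (log2 fold change -0.78 ± 0.118, adjusted p = 0.0025), and the AP-1 gene FOSL1 by 0.83 on the log2 scale. FOS (0.56, adjusted p = 0.0522) and EGR1 (0.015, adjusted p = 0.893) were not called. FOS was close to the threshold and was called up in 8 of 15 alternative fits, with values from 0.24 to 0.81 over all 15. PHLDA1 rose (0.99, adjusted p = 0.000168).

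Of 36 interferon response and antigen presentation genes 12 fell and 1 rose (median -0.34), with 7 down and 0 up without replicate 1 of the combined group, and 2 up without replicate 2 of either group. PSMB8, a subunit of the immunoproteasome, had 4.37 and 5.21 CPM against 21 and 24.2 CPM, 4.75-fold lower (log2 fold change -2.25 ± 0.149, adjusted p = 8.65e-05), with the sense-strand match shown above in a 3'UTR of 242 bases. IFIT2, an antiviral effector, had 1.53 and 1.35 CPM against 3.09 and 3.51 CPM (log2 fold change -1.19 ± 0.222, adjusted p = 0.00593). OASL (-1.26) lost its call without replicate 1 of the combined (adjusted p = 0.192) or the siH2A.Z2 group (adjusted p = 0.0939). Of widely used markers of the response, IFIT1 (0.35, adjusted p = 0.177) and ISG15 were not called. ISG15 overlapped between groups (0.676 and 1.7 CPM against 3.01 and 0.763 CPM), at -0.71 on the log2 scale. It changed sign without replicate 1 of the siH2A.Z2 group (0.57) and was -1.41 without its replicate 2. Without replicate 1 or 2 of the combined group ISG15 was at -0.14 or -1.46. DDX58, the RNA sensor RIG-I, was the 1 call upward (0.35) and lost it without replicate 1 of either group (adjusted p = 0.152 and 0.0597). Of the 12 falls 6 hold an H2A.Z.1 seed match, and 6 of the 26 members with a 3'UTR and no match fell.

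Of 23 NF-kB targets and cytokines 8 fell and 1 rose (median -0.30), and 3 fell without replicate 1 of the combined group. TNFAIP6, a hyaluronan-binding protein induced in inflammation, had 1.76 and 2.22 CPM against 16.3 and 14.2 CPM (log2 fold change -2.95 ± 0.179, adjusted p = 6.52e-05), IL11 had 6.58 and 6.38 CPM against 21.5 and 17.3 CPM (log2 fold change -1.58 ± 0.149, adjusted p = 0.000326), and SOD2, the mitochondrial superoxide dismutase, 37.3 and 38.5 CPM against 101 and 104 CPM (log2 fold change -1.44 ± 0.078, adjusted p = 4.6e-05). SOD2 has 3 guide matches and 1 sense match in a 3'UTR of 13424 bases. PTGS2, the inducible cyclooxygenase, had 28.5 and 24.2 CPM against 12.6 and 13.2 CPM and rose (log2 fold change 1.03 ± 0.122, adjusted p = 0.000842). IL6, CXCL8 and the inhibitor gene NFKBIA were not called, at -0.37, 0.045 and -0.17 on the log2 scale.

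Among matrix proteases, integrins and laminins more genes fell than rose. Of 57 matrix proteases and inhibitors 26 fell and 14 rose, and 17 and 9 without replicate 1 of the combined group. ADAMTS1, a secreted protease of proteoglycans, had 32.3 and 27.4 CPM against 101 and 112 CPM (log2 fold change -1.83 ± 0.106, adjusted p = 6.03e-05). The plasminogen activator genes PLAT (29.7 and 30.8 CPM against 63.9 and 63.2 CPM, log2 fold change -1.07 ± 0.085, adjusted p = 0.000168) and PLAU (57.3 and 53.8 CPM against 110.3 and 105 CPM, log2 fold change -0.95 ± 0.079, adjusted p = 0.000192) fell. MMP10 fell (-2.27) and MMP3, which lies in the same gene cluster, rose (17.6 and 17.9 CPM against 8.09 and 5.87 CPM, log2 fold change 1.35 ± 0.165, adjusted p = 0.000985); MMP17 rose (1.47) but not without replicate 2 of either group (adjusted p = 0.0657 and 0.0802). Of 32 integrins and laminins 13 fell and 6 rose (median -0.26). ITGAV, the alpha v subunit that binds vitronectin and activates latent TGF-beta, had 147 and 140.5 CPM against 403 and 438 CPM (log2 fold change -1.55 ± 0.078, adjusted p = 4.22e-05), and holds a match to both strands of the H2A.Z.1 siRNA. LAMA1, a laminin alpha chain, had 435 and 471 CPM against 278 and 269 CPM and rose (log2 fold change 0.73 ± 0.076, adjusted p = 0.000478). Collagen chain genes showed no common direction, with 8 of 32 up and 7 down (5 and 3 without replicate 1 of the combined group): COL5A2 fell (32 and 28.7 CPM against 51.6 and 63.9 CPM, log2 fold change -0.93 ± 0.125, adjusted p = 0.00147) and COL4A3 rose (1.73, adjusted p = 0.00361). AKAP12, a scaffold of protein kinase A named by the study, had 109 and 106 CPM against 237 and 237 CPM (log2 fold change -1.14 ± 0.069, adjusted p = 6.52e-05) and holds 2 guide matches.

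Among cadherins and protocadherins more genes rose than fell. Of 69 tested, 18 rose and 5 fell (median 0.37), and among the 56 protocadherins 15 rose and 3 fell; without replicate 1 of the combined group 3 of the 69 rose and 2 fell. PCDH7 had 27.5 and 27.8 CPM against 7.72 and 6.63 CPM (log2 fold change 1.95 ± 0.123, adjusted p = 7.27e-05), and PCDHB15 2.52 and 2.63 CPM against 1.1 and 0.724 CPM (2.83-fold higher; its call was lost on leaving out the first combined library, adjusted p = 0.0505). PCDHGC3 fell (22.1 and 23.7 CPM against 43.1 and 45.4 CPM, log2 fold change -0.95 ± 0.097, adjusted p = 0.000434); gamma protocadherins share their last exons, so reads can be split between them, and the 3'UTR they share holds the sense match. CDH1, which encodes E-cadherin of epithelia, was low and fell (0.721 and 0.527 CPM against 2.28 and 2.67 CPM, log2 fold change -1.96 ± 0.289, adjusted p = 0.00219), and CDH2, N-cadherin, was not called (306 and 287 CPM against 239 and 262 CPM, adjusted p = 0.0514). In the axon guidance families 24 of 60 genes fell and 6 rose, with 6 of 7 ephrins down; without replicate 1 of the combined group 12 fell, 2 of them ephrins, and without replicate 1 of the siH2A.Z2 group 10 rose. EPHB2, an ephrin receptor, had 36.1 and 36 CPM against 154 and 151 CPM (log2 fold change -2.08 ± 0.073, adjusted p = 2.2e-05). PLXNA2, a semaphorin receptor, had 138 and 146 CPM against 46.6 and 41.1 CPM and rose (log2 fold change 1.70 ± 0.089, adjusted p = 4.32e-05), as did SEMA3D (2.18) and SLIT2 (0.98).

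In the osteoblast list, set by the bone origin of U2OS, 5 of 13 genes fell and 2 rose. SPP1, osteopontin of the bone matrix, had 1.58 and 1.23 CPM against 9.71 and 9.99 CPM (log2 fold change -2.79 ± 0.188, adjusted p = 8.92e-05). RUNX2, the master factor of osteoblasts, was higher, at 22 and 18.2 CPM against 13.7 and 13.3 CPM (log2 fold change 0.58 ± 0.129, adjusted p = 0.0124), but not called without replicate 1 of the combined group (adjusted p = 0.117). COL1A1 (703 and 886 CPM against 1378 and 949.8 CPM, log2 fold change -0.55 ± 0.178, adjusted p = 0.0476) lost its call without replicate 1 of either group (adjusted p = 0.29 and 0.156), and without replicate 1 of the combined group 2 members fell and 1 rose. In the list on mesenchymal transition 4 of 21 genes fell, among them the repressor gene SNAI2 (6.17 and 6.85 CPM against 18.2 and 16.4 CPM, log2 fold change -1.41 ± 0.134, adjusted p = 0.000339), and TAGLN (1.26) and ACTA2 (0.69), genes of contractile cells, rose. Of the 4 falls 3 hold a guide match, and 1 of the 11 members with a 3'UTR and no H2A.Z.1 match fell. ZEB1 (-0.077, adjusted p = 0.434) and VIM (-0.28, adjusted p = 0.027, under the fold threshold) were not called. HOX genes, which set position along the body axis, had 3 of 29 called down and 0 up; HOXB13, HOXC4 and HOXC10, the 3 called, were lost without replicate 1 of the combined group (adjusted p from 0.0674 to 0.178).

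Cytosolic ribosomal protein genes were raised by small amounts: 38 of 84 rose and 1 fell (median 0.31), and 80 of the 84 values were above 0. RPS6, of the small subunit, had 1617 and 1368 CPM against 992 and 1140.1 CPM (log2 fold change 0.49 ± 0.108, adjusted p = 0.0124) and RPS25 286 and 256 CPM against 179 and 201 CPM (log2 fold change 0.51 ± 0.09, adjusted p = 0.00459). RPL39L, a paralog of RPL39 with restricted expression, was the 1 fall (-0.55, adjusted p = 0.00922). Most of these rises lost their call without replicate 1 of the combined group, a larger share than among all genes called up. The median was then 0.24. RPS6, RPL12, RPL4 and RPL39L lost their calls without that library. Scaling by library size only raised the number called up to 57. Processed pseudogenes of ribosomal proteins can share their reads, so single values are uncertain. By symbol alone, 54 of 268 tested LINC genes, a symbol for intergenic noncoding RNAs, rose and 39 fell, and 91 of 426 antisense genes rose and 21 fell (median 0.26). These became 16 and 22, and 32 and 5, without replicate 1 of the combined group. LINC01279, which the annotation holds as the protein-coding gene CCDC80 (chr3:112596797-112649530), had 0.991 and 0.819 CPM against 6.34 and 5.72 CPM (log2 fold change -2.71 ± 0.217, adjusted p = 0.000169) and LINC01348 2.66 and 1.93 CPM against 13.9 and 12.8 CPM (log2 fold change -2.52 ± 0.183, adjusted p = 0.000118), and both fell. SOX9-AS1 had 7.39 and 8.48 CPM against 1.63 and 1.75 CPM and rose (log2 fold change 2.22 ± 0.183, adjusted p = 0.00019), and MSC-AS1 fell (-1.60, adjusted p = 0.000607).

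Few genes of the machinery that handles H2A.Z were called. Of 40 genes of deposition complexes, removal factors, chaperones and interactors named by the study, 3 were called up and 1 down (median 0.0056). SRCAP, the ATPase that deposits H2A.Z, had 149.8 and 156 CPM against 177 and 166 CPM (-0.17, adjusted p = 0.116), EP400 overlapped between groups (-0.076, adjusted p = 0.545), and the chaperone ANP32E, which removes H2A.Z, had 96.1 and 85.2 CPM against 94.1 and 103 CPM (adjusted p = 0.34). PHF14 had 123 and 118 CPM against 98 and 98.6 CPM, higher in both combined libraries but under the fold threshold (log2 fold change 0.30 ± 0.069, adjusted p = 0.0146), and SIRT1 53.9 and 54.4 CPM against 46.1 and 51.7 CPM (0.15, adjusted p = 0.249). INO80C, of the INO80 complex, was the 1 fall (5.54 and 4.86 CPM against 9.55 and 9.19 CPM, log2 fold change -0.84 ± 0.148, adjusted p = 0.00452). PHF20L1 and EPC1 rose by 0.41 and 0.33 on the log2 scale, and both lost their calls without replicate 1 of the combined group (adjusted p = 0.0557 and 0.0907). Without replicate 1 of the siH2A.Z2 group 1 member was called up; without replicate 2 of the combined group 4 were called down, and 3 without replicate 2 of the siH2A.Z2 group. ZDHHC20 and COLEC12, also named by the study, were not called (0.067 and 0.25, adjusted p = 0.608 and 0.52).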

How the data were processed

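RNA-Seq was read in 4 of the 10 libraries of U2OS cells (2 siH2A.Z1+siH2A.Z2, 2 siH2A.Z2). The authors aligned paired reads to hg38 with STAR and counted them per gene with HTSeq 0.6.1 on the NCBI RefSeq annotation in strand-specific mode, and the deposited table holds these raw counts for 23089 genes. The 3 deposited tables of the authors' DESeq2 1.22.1 comparisons with control libraries, with their fold changes and p-values, were not used.

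Counts were tested in R 4.3.3 with edgeR 4.0.16 (quasi-likelihood F test, two-sided, TMM factors, default filterByExpr, which left out 7115 genes). Thresholds were those of the study. In a design of 2 against 2 the smallest exact permutation p is 0.333, so the tests rest on the spread pooled over genes. Alternatives were DESeq2 1.42.0, other scalings, filters and designs, and leaving out each library. GENCODE v44 (hg38) gave positions, 3'UTRs and GC content, with 95.6% of tested symbols matched; 3'UTR sites used the longest 3'UTR of a gene. Sequence and list work used Python 3.11.15 with pandas 2.3.3 and figures matplotlib 3.10.9.

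Members and lists were chosen with earlier results of these data known. The rule for named genes took those the study names, the 12 largest rises and falls by log2 fold change among genes called, averaging 1 CPM or more over the 4 libraries and not overlapping between groups, the 3 largest rises and falls in CPM, and in each list up to 3 rises and 3 falls of at least 1 CPM together with fixed reference members; it gave 227 genes, of which the text describes a part, and some genes are not reported here. The labels tie no replicate number to a shared batch, so replicate numbers were not used as pairs. Same-numbered libraries tended to deviate from their group means in opposite directions (r = -0.33 across genes).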

Additional observations from a re-analysis of the deposited data

How the results depend on the processing

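The number of called genes (4761) stayed between 3627 and 5815 under 11 of the 14 alternatives other than leaving out a library. It was 2255 (785 up, 1470 down) with all 10 libraries in 4 groups, 2439 (904 and 1535) with a test against the fold threshold, and 1288 (541 and 747) at a fold above 2. DESeq2 called 1321 up and 2306 down. Leaving out 1 library gave 2318 to 4529 genes, 844 to 1921 up and 1474 to 2608 down, with the lowest values without replicate 1 of the combined group. As a check outside the design, the replicate number as a replicate block gave 3889 genes (1619 up, 2270 down), and the numbers crossed between groups, added after seeing the data, 5815. Single genes and lists were not computed for the 3 changes of threshold, and cover the other 15 alternatives. There H2AFZ was called throughout; H2AFV became a call upward with upper-quartile factors (0.32) and with scaling by library size only (0.33). The share called down among genes with an H2A.Z.1 seed match was 25% for the guide and 30.2% for the sense strand, and 23.3% for guide positions 2 to 7. Lists with more falls than rises numbered 18, and 17 to 20 under these alternatives. Some list counts went lower than the values given above. Rises of p53 targets were as few as 3. Falls were as few as 5 for interferon response, 7 for integrins and laminins, 11 for TGF-beta and BMP, and 14 for matrix proteases. Of 225 other named genes 120 kept direction and call in each of these that gave a value. With all 10 libraries in 4 groups, 71 of the 225 lost their call. Some genes described above without a limit lost their call under 1 alternative, among them AXL, EPAS1, RBL1, MMP3, IFIT2, FAS and MSC-AS1. Others, not called in the main fit, became calls under some alternatives. Besides FOS, FASN, CCNB1, MKI67 and PLK1 they include PHF14 and DDIT3, each called up in 2. The genes that changed sign were not called in any fit where they did so. AXIN2 changed to 0.026, 0.033 and 0.00309 (upper quartile, library size, GC offset), VEGFA to 0.011, 0.018 and 0.00034 (the same), and PCNA to 0.049, 0.056 and 0.00208 (upper quartile, library size, 1 CPM filter). CTSD (0.00039) and MCM2 (0.0020) changed with library size only, CXCL8 with the GC offset (-0.026), and EGR1 with 10 libraries in 5 or 4 groups (-0.00866 and -0.00876). Over the fits without a library, AXIN2 lay between -0.10 and 0.021, CDKN1A between -0.057 and 0.12, CTSD between -0.29 and 0.13, CXCL8 between -0.064 and 0.16, EGR1 between -0.019 and 0.054, EP400 between -0.17 and 0.014, ISG15 between -1.46 and 0.57, PCNA between -0.088 and 0.052, and ZDHHC20 between -0.022 and 0.16. The causes were not tested. With 2 libraries per group, a single library decides many calls near the thresholds, and genes with few counts have wide intervals.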
